A study of Mus musculus with 4 samples.

Results

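The 10 genes described here, *Otof*, *Slc17a8*, *Ctbp2*, *Cacna1d*, *Cabp2*, *Chrna9*, *Chrna10*, *Pvalb*, *Calb2* and *Ocm*, serve the synapses and the calcium buffering of hair cells (HCs). They were chosen by name as genes known for these roles, but with earlier results of these data known. All 10 were found by symbol among the 23997 genes of the deposited RNA-Seq table. The table compares Lgr5+ progenitors with Lgr6+ progenitors of the mouse cochlea, which are supporting cells that can give rise to HCs. Lgr5+ progenitors were the EGFP+ cells sorted from C57BL/6 Lgr5-EGFP-IRES-CreERT2 mice at postnatal day 3, and Lgr6+ progenitors were the EGFP+ cells from Lgr6-EGFP-IRES-CreERT2 mice at the same age. In both lines the reporter is driven from the *Lgr* gene itself and cells were collected by EGFP. The study describes Lgr6+ cells as a subset of the Lgr5+ progenitors, so the populations are not separate cell types. The labels list 2 libraries per population, whereas the methods state that 1 RNA extract per population was split into 3 fractions, so replicates share an extract. The deposited FPKM, a fragment count scaled by transcript length and by the number of mapped fragments, is 1 combined value per population, so the spread between replicates is unknown, no test was possible and every difference below is a description without a replicate check.

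In a mature HC, calcium enters through Cav1.3 channels at the base of the cell and triggers the release of glutamate-filled vesicles at ribbon synapses, which carry the sound signal to the spiral ganglion neurons. A second, efferent type of synapse brings acetylcholine from the brainstem, which acts on a receptor built from the α9 and α10 nicotinic subunits. Soluble calcium-binding proteins limit how far and how long each calcium signal spreads. Some of these genes are also used outside HCs: parvalbumin and calretinin are found in spiral ganglion neurons, and *Ctbp2* is expressed in most tissues.

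Of the 10 genes, 9 had the higher FPKM in Lgr6+ cells, and for all 9 the log2(FPKM + 1) values lay 1.5-fold or more apart. Genes were kept when either population reached an FPKM of 1, and of these 13436 genes 28.5% passed that fold toward Lgr6+ cells. None of the 10 genes passed it toward Lgr5+ cells, which 23.3% of kept genes did. At 2-fold, 7 of the 10 were higher in Lgr6+ cells against 18.2% of kept genes, and 0 were higher in Lgr5+ cells against 11.7%. The median log2 difference, Lgr6+ minus Lgr5+, was 1.35 for the 10 genes and 0.03 for all kept genes. *Pvalb* was the exception, with an FPKM of 477 in Lgr5+ cells and 408 in Lgr6+ cells, a log2 difference of -0.22 that became positive when the populations were scaled to the same sum (0.04) or quantile normalized (0.06). All 10 genes passed the filter, and 8 of them were above an FPKM of 10 in both populations. Scaling to the same sum moved the median difference of all kept genes to 0.28 and raised the share of 1.5-fold differences that lay toward Lgr6+ cells from 55.0% to 69.9%, while the count among the 10 genes stayed at 9.

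**Figure D1:**
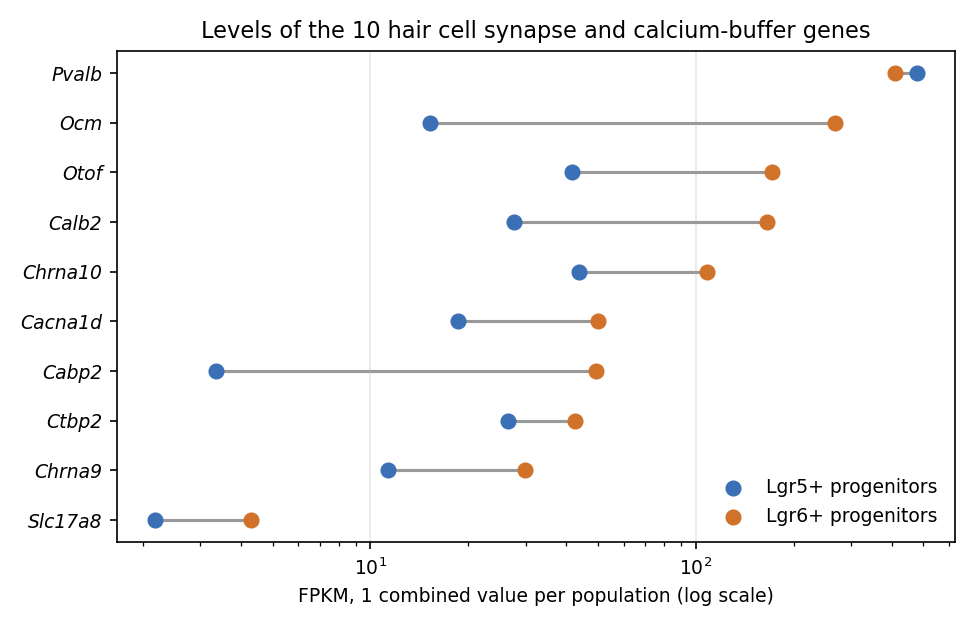
FPKM of the 10 genes on a log scale, 1 combined value per population, with blue points for Lgr5+ cells, orange points for Lgr6+ cells and genes ordered by the Lgr6+ level. The orange point lies to the right of the blue for 9 genes, from *Slc17a8* (2.18 and 4.30) to *Ocm* (15.3 and 268). For *Pvalb* (477 and 408) the order is the opposite as deposited and flips under same-sum scaling or quantile normalization.

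The summed levels of HC, supporting cell, macrophage, mesenchyme and Schwann cell markers also differed between the populations. Those of spiral ganglion neuron markers were nearly equal, but single neuron markers differed in opposite directions, so the equal sums do not show equal neuron content. Of all kept genes, 28.5% were past 1.5-fold toward Lgr6+ cells and 23.3% toward Lgr5+ cells. All 10 HC markers examined had the higher FPKM in Lgr6+ cells, 6 of them by at least 1.5-fold, with a median log2 difference of 0.94. Their summed FPKM was 418 in Lgr5+ and 645 in Lgr6+ cells. In Lgr5+ cells *Slc26a5* had only 0.0761, below the limit of 1. *Myo7a*, a myosin of the hair bundle that defines HCs, had an FPKM of 19.3 and 47.0, and the HC transcription factor genes had 31.0 and 49.0 (*Pou4f3*), 19.5 and 55.5 (*Gfi1*) and 30.9 and 36.4 (*Atoh1*). Macrophage markers summed to 1.47 in Lgr5+ and 229 in Lgr6+ cells, where 6 of 6 kept markers were past 1.5-fold and 4 of the 7 were listed at 0 in Lgr5+ cells. Mesenchyme and fibrocyte markers summed to 49.0 and 394 with 4 of 6 past the fold, Schwann cell markers to 73.2 and 197 with 2 of 4 kept markers past it, and spiral ganglion neuron markers to 98.7 and 99.0 with 3 of 9 kept markers past it toward Lgr6+ and 1 toward Lgr5+ cells. Supporting cell markers were mixed, since 3 of 12 were past the fold toward Lgr6+ cells, 4 were past it toward Lgr5+ cells and 5 lay between. Their FPKM summed to 1120 and 554. The Notch target *Hes5* had 505 and 91.7, and *Sox2*, which marks these cells, had 139.6 and 54.8. The sorting genes had an FPKM of 9.65 and 25.0 (*Lgr5*) and 2.06 and 2.90 (*Lgr6*), so *Lgr5* was lower in the population sorted for it. The study places Lgr6+ cells among the Lgr5+ progenitors, and why *Lgr5* was lower in Lgr5+ cells was not tested. Fewer cells of a type and less RNA per cell cannot be told apart in such bulk samples, and the part of these other cells in the differences of the 10 genes was not tested.

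The release machinery is represented by *Otof*, *Slc17a8* and *Ctbp2*. *Otof*, at 30367066 to 30461932 of chromosome 5 (GRCm38, as for all positions here), encodes otoferlin, the calcium sensor needed for vesicle release from HCs. Its FPKM was 41.6 in Lgr5+ cells and 171 in Lgr6+ cells, a log2 difference of 2.01 and a ratio of 4.11. This level exceeded that of 83.1% of kept genes in Lgr5+ and of 95.5% in Lgr6+ cells, so the transcript of a release protein ranked among the more abundant in both sorted populations. *Slc17a8*, at 89574020 to 89621249 of chromosome 10, encodes VGLUT3, which fills the vesicles of HCs with glutamate. It was the lowest of the 10 genes in both populations, with an FPKM of 2.18 and 4.30. Its log2 difference of 0.74 fell to 0.49, below the 1.5-fold limit, after quantile normalization. Per unit of transcript length, *Otof* was thus 19.1 times as abundant as *Slc17a8* in Lgr5+ cells and 39.8 times in Lgr6+ cells, although inner HCs use both for transmission.

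*Ctbp2*, at 132987011 to 133123483 of chromosome 7, encodes the transcriptional corepressor CTBP2 and, from a start inside the gene, RIBEYE, the main protein of the synaptic ribbon. Its FPKM was 26.5 in Lgr5+ and 42.4 in Lgr6+ cells, a log2 difference of 0.66 that was the smallest of the 9 toward Lgr6+ cells. The paralog *Ctbp1*, a corepressor with no known ribbon form, had 119 and 76.7, a log2 difference of -0.62 that stayed negative but under 1.5-fold with same-sum scaling or quantile normalization. *Ctbp2* therefore made up 18.3% of the summed FPKM of the pair in Lgr5+ cells and 35.6% in Lgr6+ cells. The table has a single row for the gene, so the part of RIBEYE in these values is not known. RefSeq places starts at 133081860 and 133015247, both on the minus strand. The first 50 bases after the inner start lie at base 2 of an annotated transcript with a coding sequence of 988 codons, but also at base 244 of transcripts with 420 and 188 codons. Those after the outer start lie at base 27 of a transcript with 420 codons and at base 228 of one with 445, among other shorter ones. Neither start therefore belongs to a single product. The outer start lies 41623 bases inside the edge of the deposited interval, so transcripts that begin farther upstream can also add to the FPKM. The annotated transcripts that hold its first 50 bases all begin earlier, so the bases before it need not be their promoter. The 250 bases before each start are shown because both starts lie in the interval that the single FPKM covers. Capitals mark the letters CANNTG, the E-box bound by basic helix-loop-helix factors such as Atoh1. The outer sequence is chr7:133081861-133082110 and the inner is chr7:133015248-133015497, each written 5′ to 3′ on the minus strand.
Ctbp2 outer start: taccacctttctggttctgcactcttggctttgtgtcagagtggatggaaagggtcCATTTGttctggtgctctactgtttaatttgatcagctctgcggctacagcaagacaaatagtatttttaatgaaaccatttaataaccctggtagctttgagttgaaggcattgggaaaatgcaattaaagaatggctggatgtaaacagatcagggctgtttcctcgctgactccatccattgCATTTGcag
Ctbp2 inner start: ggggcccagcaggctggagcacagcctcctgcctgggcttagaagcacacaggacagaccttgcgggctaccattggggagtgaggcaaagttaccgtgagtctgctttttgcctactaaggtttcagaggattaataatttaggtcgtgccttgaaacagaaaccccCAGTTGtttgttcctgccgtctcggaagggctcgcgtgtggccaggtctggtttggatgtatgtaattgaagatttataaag

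The wider list of presynaptic release genes did not share the pattern of *Otof* throughout. Of its 23 genes, 18 were kept, with a median log2 difference of 0.15. By 1.5-fold or more, 7 of them (38.9%) were higher in Lgr6+ cells and 3 (16.7%) in Lgr5+ cells, and 8 lay between. The shares of all kept genes were 28.5% and 23.3%. *Rims2*, a scaffold of the active zone and the most abundant of the list, had an FPKM of 53.7 and 94.8. *Snap25*, a membrane fusion protein of neurons, had 7.63 and 53.4, and its log2 difference of 2.66 was the largest of the list. The complexin genes, which regulate vesicle fusion, differed in opposite directions, with 1.57 and 7.22 for *Cplx1* and 12.9 and 5.58 for *Cplx2*. The vesicle protein gene *Vamp2* had 36.0 and 37.8. Among the ferlins, the protein family of otoferlin, only *Dysf* was kept of the 4 other genes in the table, with 1.68 and 1.08. Of the other vesicular glutamate transporter genes, *Slc17a7* was listed at 0 in both populations and *Slc17a6* at 0 in Lgr5+ cells with 1.70 in Lgr6+ cells, and a listed 0 can be a failed estimate.

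*Cacna1d* and *Cabp2* encode the presynaptic calcium channel and a protein that tunes it. *Cacna1d*, the pore-forming subunit of Cav1.3, had an FPKM of 18.6 in Lgr5+ and 50.2 in Lgr6+ cells, a log2 difference of 1.38. The table gives it the interval from 30009000 to 30527056 of chromosome 14, which *Chdh* and *Dcp1a* share there, whereas RefSeq places the gene at 30039941 to 30491156. The related L-type channel gene *Cacna1c* was low, with 0.0101 and 0.284. The ratio of *Otof* to *Cacna1d* FPKM was 2.23 in Lgr5+ and 3.41 in Lgr6+ cells, so the sensor and the channel did not differ by the same factor. Of the 11 other subunit genes of voltage-gated calcium channels, 6 were kept, 3 of which were past the fold toward Lgr6+ and 2 toward Lgr5+ cells. The shares of all kept genes were 28.5% and 23.3%. *Cacnb2*, whose β2 subunit brings Cav1.3 to the membrane of HCs, had 6.95 in Lgr5+ cells and a log2 difference of 0.82. *Cacnb3* was the most abundant subunit gene of the list and had 39.8 and 18.7, and *Cacna2d3*, an auxiliary subunit gene, had 0.0378 and 2.57.

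*Cabp2*, at 4082488 to 4087339 of chromosome 19, encodes a calmodulin-like protein that slows the inactivation of Cav1.3, and its loss causes hearing impairment. It had an FPKM of 3.36 in Lgr5+ cells and 49.4 in Lgr6+ cells, a log2 difference of 3.53 that ranked 80th of the 13436 kept genes. It moved from the next to lowest of the 10 genes in Lgr5+ cells to the seventh in Lgr6+ cells. Of the 8 other genes of the calmodulin and calcium-binding protein family, 3 were kept. Toward Lgr6+ cells, 1 of them (33.3%, against 28.5% of all kept genes) passed 1.5-fold. That gene was *Calm2*, which encodes the calcium sensor calmodulin, with 403 and 795, while *Calm3* had 266 and 182. The 250 bases before the RefSeq start that coincides with the edge of the deposited interval are shown because *Cabp2* had the second-largest difference of the 10 genes. They lie at chr19:4082238-4082487 on the plus strand and hold CAGATG and CACCTG. RefSeq places the gene at 4081469 to 4087340, so these bases lie inside its span. The bases before a further *Cabp2* start, at 4083519, hold no CANNTG.
Cabp2: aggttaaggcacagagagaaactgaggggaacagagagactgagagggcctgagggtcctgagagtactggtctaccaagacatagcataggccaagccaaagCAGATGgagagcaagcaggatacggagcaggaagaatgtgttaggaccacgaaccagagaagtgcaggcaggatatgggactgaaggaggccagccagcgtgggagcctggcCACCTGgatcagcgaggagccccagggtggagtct

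*Chrna9* and *Chrna10* encode the subunits of the efferent receptor and had nearly the same difference. *Chrna9*, at 65967124 to 65977486 of chromosome 5, had an FPKM of 11.3 in Lgr5+ and 29.8 in Lgr6+ cells, a log2 difference of 1.32. *Chrna10*, at 102111266 to 102116713 of chromosome 7, had 43.6 and 108, a log2 difference of 1.29. The α10 transcript was thus the more abundant in both populations, 3.85 times the α9 transcript in Lgr5+ and 3.63 times in Lgr6+ cells. Of the 16 other genes of nicotinic receptors and the efferent synapse, 7 were kept. By 1.5-fold or more, 5 of these (71.4%) were higher in Lgr6+ cells and 0 in Lgr5+ cells, and 2 lay between. The shares of all kept genes were 28.5% and 23.3%. *Kcnn2*, the SK2 potassium channel that the calcium entering through this receptor opens, had 8.42 and 30.1. The subunit genes known from muscle included *Chrng* with 14.5 and 31.8, *Chrna1* with 1.30 and 7.66, and *Chrnb1* with 26.4 and 19.6. *Chrna4*, a subunit of neurons, was listed at 0 in Lgr5+ cells and had 1.76 in Lgr6+ cells.

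The sequences before the starts of *Chrna9* and *Chrna10* are shown side by side because their products form 1 receptor and their differences were alike. They lie at chr5:65966874-65967123 on the plus strand and at chr7:102116714-102116963 on the minus strand. RefSeq places *Chrna9* at 65934854 to 65977486 and *Chrna10* at 102111260 to 102116971, so both sequences lie inside the RefSeq gene spans. Each holds 2 E-box matches, CACCTG and CAGCTG in *Chrna9* and CAGGTG and CAGTTG in *Chrna10*. Of all 32851 mouse starts, 31.8% hold 2 or more in windows of the same length, so this count does not set the pair apart.
Chrna9: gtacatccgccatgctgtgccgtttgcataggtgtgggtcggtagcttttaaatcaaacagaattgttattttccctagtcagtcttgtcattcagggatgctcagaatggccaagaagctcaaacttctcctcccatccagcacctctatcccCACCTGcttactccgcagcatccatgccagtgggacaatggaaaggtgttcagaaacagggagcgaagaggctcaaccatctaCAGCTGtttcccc
Chrna10: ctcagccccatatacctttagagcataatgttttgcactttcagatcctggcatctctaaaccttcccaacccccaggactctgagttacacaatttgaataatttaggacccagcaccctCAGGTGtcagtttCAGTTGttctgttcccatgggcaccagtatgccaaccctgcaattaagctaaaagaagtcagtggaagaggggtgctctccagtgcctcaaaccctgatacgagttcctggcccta

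**Figure D2:**
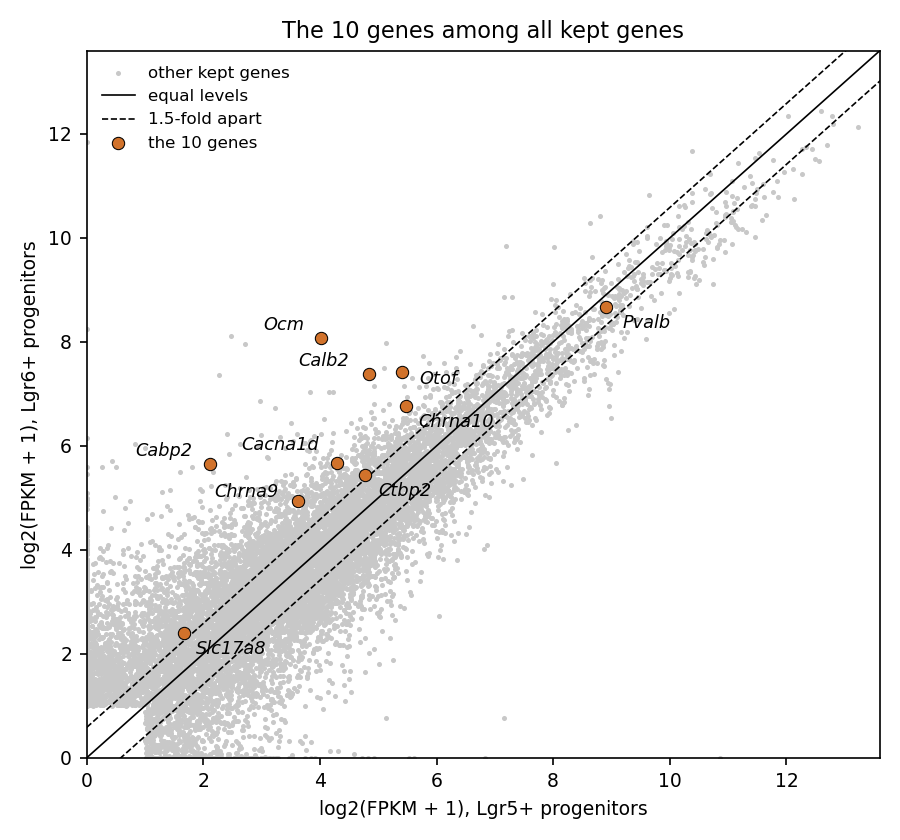
Level in Lgr6+ cells against level in Lgr5+ cells on the log2(FPKM + 1) scale for all 13436 kept genes (grey) and the 10 genes (orange), with the solid line at equal levels and dashed lines 1.5-fold apart. *Ocm*, *Cabp2*, *Calb2* and *Otof* lie farthest above the diagonal, *Ctbp2* and *Slc17a8* lie just outside the dashed line, and *Pvalb* lies between the lines.

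The mobile calcium buffers *Pvalb*, *Calb2* and *Ocm* held both the smallest and the largest difference. *Pvalb*, at 78191118 to 78206351 of chromosome 15, encodes parvalbumin and was the most abundant of the 10 genes in both populations, above 98.0% of kept genes in each. Among the 1021 kept genes with a mean FPKM above 100, the median log2 difference was -0.26 and 31.4% had the higher FPKM in Lgr6+ cells. The -0.22 of *Pvalb* in the deposited values thus lay close to the median of abundant genes. *Pvalb* had 0.04 or 0.06 under the scalings named above, for which the median of abundant genes was not computed. *Calb2*, at 110142538 to 110168206 of chromosome 8, encodes calretinin, a buffer of inner HCs and of spiral ganglion neurons. It had 27.6 in Lgr5+ and 165 in Lgr6+ cells, a log2 difference of 2.54. *Ocm*, at 144019807 to 144050609 of chromosome 5, encodes oncomodulin, the parvalbumin typical of outer HCs. It had 15.3 and 268, a ratio of 17.6 and a log2 difference of 4.05 that ranked 38th of all kept genes. It moved from the seventh of the 10 genes in Lgr5+ cells to the next after *Pvalb* in Lgr6+ cells.

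The makeup of the summed *Pvalb*, *Calb2* and *Ocm* transcripts differed between the populations. The FPKM of *Pvalb*, *Calb2* and *Ocm* summed to 519.8 in Lgr5+ cells and 842 in Lgr6+ cells. *Pvalb* made up 91.8% of the sum in Lgr5+ cells, with 5.30% for *Calb2* and 2.94% for *Ocm*. In Lgr6+ cells the shares were 48.5%, 19.6% and 31.9%. *Pvalb* transcripts outnumbered *Ocm* transcripts 31.2 times per unit of length in Lgr5+ cells and 1.52 times in Lgr6+ cells. These shares are within a population and do not change when a population is multiplied by a factor.

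**Figure D3:**
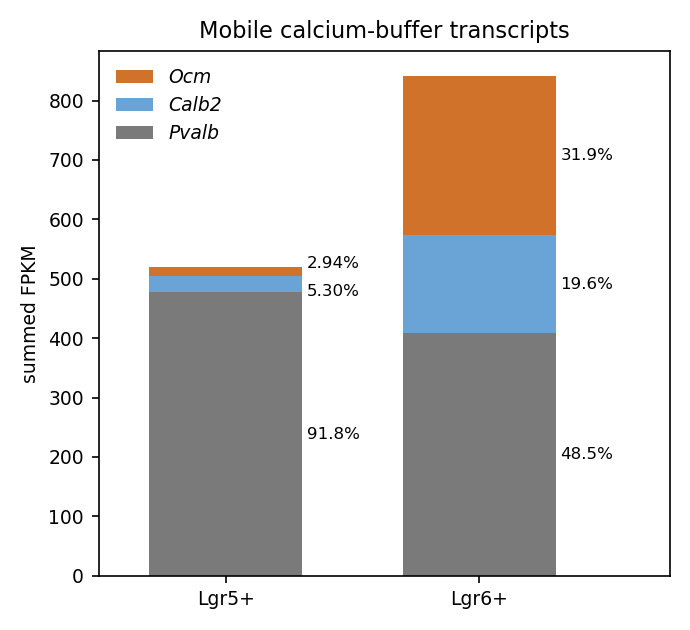
Stacked bars of the FPKM of *Pvalb* (grey), *Calb2* (blue) and *Ocm* (orange) in each population, starting at 0, with each gene's percent of the sum beside its segment. *Pvalb* makes up 91.8% of the Lgr5+ bar and 48.5% of the Lgr6+ bar, and *Ocm* 2.94% and 31.9%.

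Of the 13 other genes of calcium buffers, pumps and exchangers, 11 were kept. By 1.5-fold or more, 7 of them (63.6%) were higher in Lgr6+ cells and 0 in Lgr5+ cells, and 4 lay between. The shares of all kept genes were 28.5% and 23.3%. *Calb1*, which encodes calbindin and is a further buffer of HCs, had an FPKM of 34.1 in Lgr5+ and 249.7 in Lgr6+ cells, a log2 difference of 2.84. With *Calb1* added to the sum of *Pvalb*, *Calb2* and *Ocm*, *Pvalb* made up 86.1% in Lgr5+ and 37.4% in Lgr6+ cells. In the same order, *Calb1* made up 6.16% and 22.9%, *Ocm* 2.76% and 24.6%, and *Calb2* 4.98% and 15.1%. *S100g*, another calbindin gene, was listed at 0 in Lgr5+ cells and had 17.3 in Lgr6+ cells. The widely expressed pump gene *Atp2b1* had 83.4 and 94.6. The pump genes *Atp2b3* and *Atp2a2* had 3.29 and 9.20, and 20.8 and 39.5.

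*Ocm* and *Pvalb* are the parvalbumin genes of the mouse and stood at opposite ends of the differences, so the sequences before their starts are shown together. They lie at chr5:144050610-144050859 and at chr15:78206401-78206650, both on the minus strand, and neither holds CANNTG, while a further *Pvalb* start inside the gene, at 78204237, follows CATGTG. RefSeq places *Ocm* at 144019807 to 144050640, so its sequence lies partly inside the RefSeq gene span. Sequences before 13 RefSeq starts of 8 of the 10 genes were read, and those of *Otof* and *Calb2* were not used here. At least 1 CANNTG, which reads the same on both strands, was found before 9 of the 13 starts, and 66.2% of all 32851 mouse starts hold 1 in windows of the same length, so its presence does not set these genes apart.
Ocm: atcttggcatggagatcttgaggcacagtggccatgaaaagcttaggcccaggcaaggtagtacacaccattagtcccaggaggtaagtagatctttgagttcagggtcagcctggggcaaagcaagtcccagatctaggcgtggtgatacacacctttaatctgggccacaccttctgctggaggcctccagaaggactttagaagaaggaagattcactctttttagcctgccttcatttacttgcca
Pvalb: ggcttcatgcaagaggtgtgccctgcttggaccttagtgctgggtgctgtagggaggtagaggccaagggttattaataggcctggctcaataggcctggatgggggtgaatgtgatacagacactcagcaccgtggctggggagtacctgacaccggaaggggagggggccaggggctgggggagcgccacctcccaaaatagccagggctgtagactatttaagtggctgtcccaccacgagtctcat

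**Figure D4:**
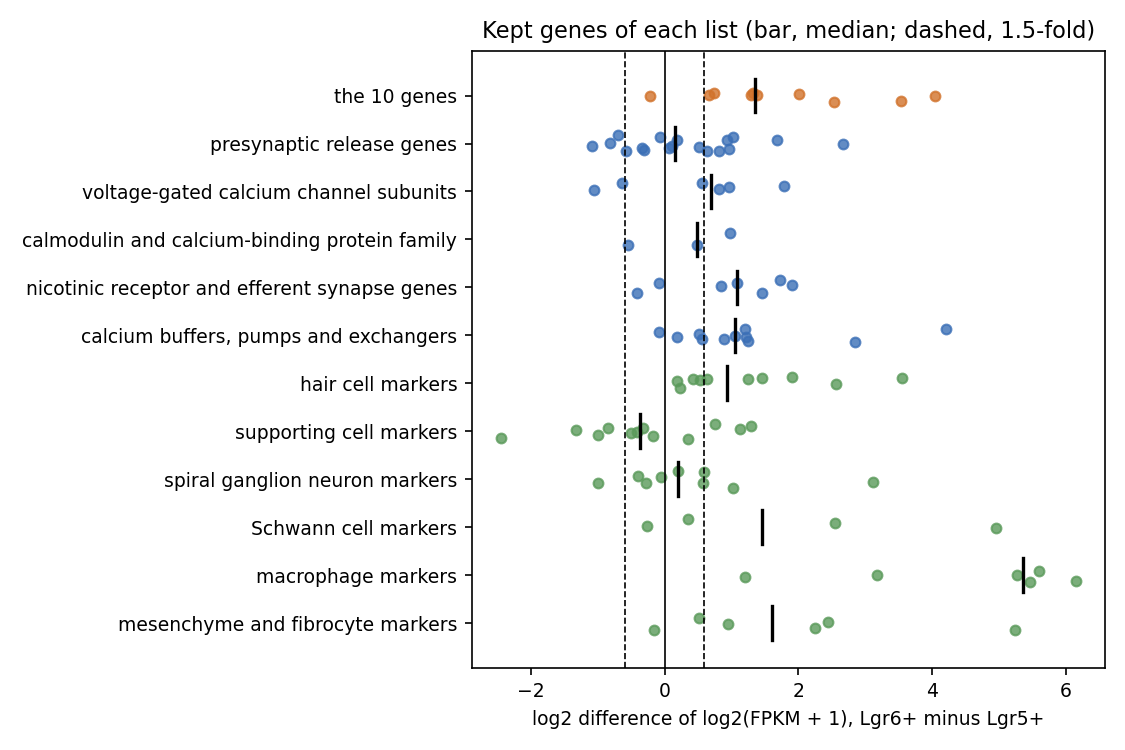
Log2 difference (Lgr6+ minus Lgr5+) of each kept gene, by list, for the 10 genes (orange), lists of related genes (blue) and cell type markers (green), with bars at the medians, dashed lines at 1.5-fold and lists of fewer than 3 kept genes left out. The median is 1.35 for the 10 genes, 0.15 for presynaptic release genes, 1.06 for calcium buffers, pumps and exchangers, 0.94 for HC markers and 5.36 for macrophage markers.

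Across all lists of related genes, 49 of 82 genes in the table were kept. Of these, 25 genes, or 51.0%, were higher by 1.5-fold or more in Lgr6+ cells, against 28.5% of all kept genes. Another 6 genes, or 12.2%, were higher by 1.5-fold or more in Lgr5+ cells, against 23.3%. The median log2 difference of the 49 genes was 0.63, between that of the 10 genes and that of all kept genes.

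The precision of the lowest values can be judged only indirectly. Low FPKM values multiplied by transcript length fell on steps, and 100 products lay at the step of Lgr5+ cells against 8 in equally wide neighbouring windows, while 56 lay at that of Lgr6+ cells against 10.5. If a step is 1 fragment, the combined values stand for 7776475 fragments in Lgr5+ and 24878561 in Lgr6+ cells, and the part of this gap in the values listed at 0 was not tested. On this reading the FPKM of *Cabp2* stood for about 22 fragments in Lgr5+ cells and 1020 in Lgr6+ cells, that of *Ocm* for 54 and 3057, and that of *Slc17a8* for 72 and 455. *Otof* stood for 2241 and 29462, and *Pvalb* for 2882 and 7894. The *Cabp2* and *Ocm* ratios thus rest on the thinnest Lgr5+ coverage of the 10 genes. How the steps relate to single libraries is not known.

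**Figure D5:**
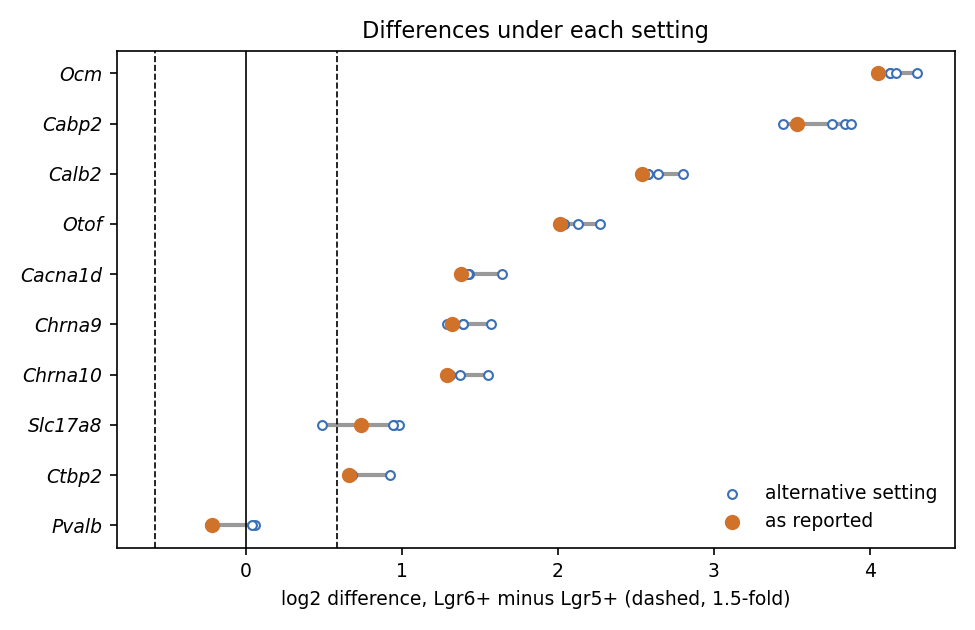
Log2 difference of each of the 10 genes as reported (orange) and under the alternative settings (open blue points), with dashed lines at 1.5-fold. *Slc17a8* falls to 0.49 at its lowest, and *Pvalb* runs from -0.23 to 0.06.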

How the data were processed

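RNA-Seq libraries of sorted Lgr5+ and Lgr6+ progenitors were made by the authors with a low-input amplification kit. Per the methods and the processing notes, the authors used Trimmomatic for trimming, TopHat for mapping and Cufflinks with RefGene genes for FPKM, with versions not given in the sources used here. The methods name mm9 and the notes name mm10. Of 22369 symbols in the deposited table, 99.4% overlapped the gene in GRCm38.p6 RefSeq, against 12.7% of 20656 in NCBIM37. Starts were made 1-based.

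The FPKM values that the authors deposited are 1 per population, with libraries combined. The deposited fold changes, *p*-values and *q*-values come from the authors' own comparison and were not used. The planned limma fit and its replicate block could not be run on 1 value per population.

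Differences are log2(FPKM + 1) in Lgr6+ minus Lgr5+ progenitors. The pseudocount of 1 understates the differences of low genes. A gene was kept when either population reached an FPKM of 1. The 1.5-fold limit is taken from the study, which also required significance and a level above background. Here it was applied to log2(FPKM + 1) without a test, so the counts are not those of the study. Some genes with an FPKM ratio above 1.5 fell under it. A value of 0 can be a failed estimate, so no ratio is given against it. Alternatives were a pseudocount of 0.1, no pseudocount, other filters, other scalings and 2-fold. The members and lists were chosen with earlier results of these data known. From each list, up to 3 kept genes with the highest FPKM, up to 3 with the largest difference past 1.5-fold, paralogs of the 10 genes and defining markers could be named. A gene that this rule names is not reported here. Steps were read from 7696 genes with 1 coding transcript over 600 bases (GENCODE vM1), with length reduced by 200 bases. Promoter sequences are from RefSeq (GRCm38.p6). The files give no depth per library, and the read numbers stated by the study are a range over samples that is not tied to single libraries. Python 3.11.15, numpy 2.4.6, pandas 2.3.3 and matplotlib 3.10.9 were used, and the calculation was tested on simulated data.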

Additional observations from a re-analysis of the deposited data

How the results depend on the processing

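The 10 genes were recomputed with 9 alternatives. The number past the fold toward Lgr6+ progenitors stayed between 7 (2-fold limit) and 9, and none passed toward Lgr5+ progenitors in any of them. The number was 8 with an FPKM of at least 5, which removes *Slc17a8*, and 8 after quantile normalization, where *Slc17a8* had 0.49. Of all kept genes, the share past the fold toward Lgr6+ progenitors ran from 17.4% without a filter to 37.3% with same-sum scaling. Toward Lgr5+ progenitors it ran from 11.7% with the 2-fold limit to 26.5% after quantile normalization. The genes of the related lists past the fold numbered 25 toward Lgr6+ progenitors. This number ran from 16, with an FPKM of at least 5 or with the 2-fold limit, to 30 with same-sum scaling. The shares of all kept genes were 24.1%, 18.2% and 37.3% at these settings. An FPKM limit of 5 also removes low genes of the lists. Toward Lgr5+ progenitors the list genes past the fold numbered 6. This number ran from 2, with same-sum scaling or with the 2-fold limit, to 8, for example after quantile normalization. The shares of all kept genes were 16.1%, 11.7% and 26.5% at these settings. The log2 difference ran from 4.05 to 4.30 for *Ocm*, from 3.44 to 3.88 for *Cabp2*, from 2.54 to 2.80 for *Calb2* and from 2.01 to 2.27 for *Otof*. No paired analysis was possible because the deposited columns hold 1 combined value per population and carry no replicate number. Leaving out each replicate was not run for the same reason. The files give no depth or spread of single libraries, so the error of *Cabp2*, *Slc17a8* and other low values cannot be given.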

Other observations

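The log2 differences of the 10 HC markers ran from 0.19 to 3.55, and those of the 10 synapse and buffer genes from -0.22 (*Pvalb*, 0.04 with same-sum scaling and 0.06 after quantile normalization) to 4.05. *Tmc1*, the mechanotransduction channel gene, had an FPKM of 1.06 in Lgr5+ and 23.1 in Lgr6+ progenitors, a log2 difference of 3.55. *Slc26a5*, which encodes prestin of outer HCs, had 0.0761 and 5.39, and *Strc*, which encodes stereocilin of the hair bundle, had 4.16 and 18.3. Against these, *Espn*, an actin-bundling gene and the most abundant marker, had 193 and 259.8, and *Lhx3*, a transcription factor gene of HCs, had 74.2 and 84.7. *Barhl1* had 45.1 and 65.5. The ratio of *Otof* to *Myo7a* FPKM was 2.16 in Lgr5+ and 3.64 in Lgr6+ progenitors.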
